A study of Mus musculus with 11 samples.

Results

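The regions described here are stretches of open chromatin that lay in introns and carried an ATAC-seq peak in dopaminergic (DA) neurons of the embryonic mouse but none in serotonergic (5-HT) neurons. They were chosen by the score deposited for each region in each library, where 0 stands for no peak. A region was taken when its score was above 0 in all 3 DA libraries and 0 in both 5-HT libraries, and when its centre lay in an intron and outside every exon and every promoter, a promoter being the stretch between 1 kb before and 100 bp after a transcription start site (TSS). This gave 7887 DA-only intronic regions of 131942 regions in all. Of 15889 intronic regions with a peak in all 3 DA libraries, 49.6% had no peak in either 5-HT library, and over all places this share was 38.6% (17616 of 45672). The rule used exactly this contrast, so the presence of these regions in DA and their absence in 5-HT neurons is a description, and nothing is read from it.

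Midbrain DA neurons and hindbrain 5-HT neurons were sorted by FACS from E14.5 embryos, and open chromatin was profiled by ATAC-seq to ask which sites are open in DA neurons. The DA group came from TH-GFP mice, a line kept on the C57BL/6J background in which the rat Th promoter drives GFP. The 5-HT group carried Mash1-CRE x ROSA YFP, so that cells with a history of Mash1 expression were labelled. For both groups, transgenic males were crossed to Swiss females, and ventral mesencephalon (DA) or hindbrain rhombomeres r1 to r3 (5-HT) of several embryos were pooled for an experiment. The sorted cells are therefore defined by a Th transgene in one group and by a Cre driver shared by many neural progenitors in the other, and the mouse line cannot be told apart from the cell type. The authors sorted fewer cells for the 5-HT libraries than for the DA libraries. No other sample of the series was analysed here.

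The 3 DA libraries held 52861, 93055 and 94351 peaks, and the 2 5-HT libraries held 38772 and 22879. Each DA library thus had more peaks than either 5-HT library, and a region can lack a peak in the 5-HT libraries for this reason alone. Read depths are not given in the peak files, and the part of peak number in some results was examined by keeping only the 22879 highest-scoring peaks of every library. The densities and DA-only shares of single genes, of gene lists and of classes of intron length or gene span were not recounted in this way. In pooled, sorted cells, a site open in fewer cells and a site less open in each cell cannot be told apart.

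The promoters of marker genes were looked up in each library as a check of the labels. Th, the rate-limiting enzyme of dopamine synthesis, had a promoter peak in the 3 DA libraries, with scores of 9.91, 10.6 and 8.45, and in neither 5-HT library. The promoters of Lmx1a, a transcription factor of midbrain DA progenitors, and of Aldh1a1, a retinaldehyde dehydrogenase of a subset of DA neurons, had the same pattern. The other DA markers did not separate the groups: the promoters of Ddc, Nr4a2, Pitx3, Foxa2, En1 and Kcnj6 had a peak in all 5 libraries, and those of Slc6a3 and Slc18a2 in 4. Fev, the factor that drives serotonergic identity, had no promoter peak in any DA library and a score of 3.88 in 5-HT library 1 only. Other serotonergic markers did not follow the labels: the promoter of Tph2, the neuronal tryptophan hydroxylase, had a peak in all 5 libraries, and that of Slc6a4, the serotonin transporter, had a peak in the 3 DA libraries only. The promoters of the microglial genes Cx3cr1, Csf1r and Aif1 and of the endothelial gene Pecam1 had no peak in any library, while those of the vascular genes Cldn5 and Kdr had a peak in 4 libraries, Pdgfrb in 2 and Rgs5 in 1. Promoter peaks of Gad1, Gad2 and Fabp7, genes of GABAergic neurons and radial glia, were found in all 5 libraries, those of Slc32a1, Gfap and Slc1a3, of the same cell types, and of the glutamatergic gene Slc17a6 in all but 5-HT library 2, and that of the astrocyte gene Aqp4 in DA libraries 2 and 3 only. The part of such cells in the results was not tested.

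Open chromatin is where regulatory proteins reach the DNA, and the transposase used in ATAC-seq inserts preferentially there. Introns make up a large share of mammalian genes, and many enhancers lie in them, acting on the host gene or on a neighbour. Promoters tend to be open in many cell types, while enhancers are more often open in few.

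Introns held 44.8% of the 17616 DA-only regions and intergenic loci 47.4%, while promoters held 3.99% and exons 3.87%. The share without a 5-HT peak among regions with a peak in all 3 DA libraries was alike in introns (49.6%, 95% Wilson interval 48.9 to 50.4%) and intergenic loci (50.5%, 49.7 to 51.2%), and it was far lower in exons (19.4%) and promoters (7.22%). DA-only intronic regions were thus close to DA-only intergenic ones in number and in the share of open sites they made up. They were also alike in form. The median width was 530 bp in introns (quartiles 351 and 762 bp) and 517 bp in intergenic loci, the median GC content 48.0% and 46.8%, and the median CpG ratio (observed over expected) 0.232 and 0.220. Intronic regions open in all 5 libraries were wider, with a median of 996 bp, and richer in GC (52.9%) and CpG (0.366). The 4108 intronic regions with a peak in 3 DA libraries and in 1 5-HT library fell between, at 652 bp, 49.5% and 0.271.

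The intron rank of each region was taken in the longest protein-coding transcript around its centre. Of the 7887 DA-only intronic regions, 2321 lay in the first intron, which is 29.4% (95% Wilson interval 28.4 to 30.4%). First introns made up 27.9% of all intronic bases, so these regions were spread over intron ranks nearly as the bases are. Intronic regions open in all 5 libraries lay in the first intron in 53.4% of cases (51.8 to 55.0%). Per 100 kb of intron, DA-only regions numbered 0.880 in first introns, 0.834 in introns of rank 2, 0.843 in those of rank 3, 0.765 in introns 4 and 5, 0.860 in introns 6 to 10, 0.804 in introns 11 to 20 and 0.754 beyond. Regions open in all 5 libraries numbered 0.789 in first introns and between 0.228 and 0.310 in each later class. The density of DA-only regions was thus nearly flat over ranks, while that of regions shared by both cell types was concentrated in first introns.

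This contrast in rank lay close to TSSs. Within 5 kb of the TSS of the host transcript, introns held 0.677 DA-only regions and 1.99 regions open in all 5 libraries per 100 kb. From 5 to 10 kb the values were 0.736 and 0.310, from 50 to 100 kb 0.943 and 0.301, and beyond 200 kb 0.817 and 0.224. The median distance to this TSS was 66.8 kb for DA-only intronic regions, 52.0 kb for those with a peak in 1 5-HT library, 17.7 kb for those open in all 5 libraries and 58.2 kb for intronic positions taken every 1000 bp. When only regions at least 5 kb from any annotated TSS were kept, a choice made after seeing the data, the first-intron share was 26.4% for 6314 DA-only regions, 27.2% for 1844 regions open in all 5 libraries and 24.7% for the intronic positions. Away from TSSs, DA-only and shared regions therefore had nearly the same distribution between the first and the later introns.

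DA-only intronic regions lay in introns with a median length of 31.9 kb, at a median of 5.88 kb from the nearest exon. The density rose with intron length from 0.638 per 100 kb in introns below 2 kb to 1.03 in introns of 50 to 100 kb, and it was 0.646 in introns above 200 kb. Over the span of the host gene it was 0.663 per 100 kb below 20 kb, 0.977 from 100 to 200 kb, 1.01 from 200 to 500 kb and 0.573 above 1 Mb. The density of regions open in all 5 libraries fell without a break over the same classes, from 0.901 below 20 kb to 0.132 above 1 Mb. The share of DA-only regions among intronic regions open in all 3 DA libraries accordingly rose from 31.6% in genes below 20 kb to 60.7% in genes above 1 Mb. The longest genes thus had the lowest density of both kinds of region, and their DA-only share was high because shared regions thinned out more.

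Protein-coding genes were the hosts of 95.2% of the DA-only intronic regions, and protein-coding genes made up 94.4% of intronic positions. Counting each gene whose introns held the centre of a region, 3618 of 19270 protein-coding genes with intron sequence had at least 1 DA-only region, 1503 had at least 2, 339 at least 5 and 61 at least 10. The median span was 20.3 kb for all these genes, 91.0 kb for those with a DA-only region and 362.2 kb for those with at least 5. Over all introns there were 0.836 DA-only regions and 0.413 regions open in all 5 libraries per 100 kb.

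The 10 genes with the most DA-only intronic regions were long and of varied function. The last places were tied at 14 regions, and Ldlrad3 and Odz2, which also held 14, are not among the 10. Odz4, a teneurin that binds latrophilins across cell contacts, held 20 regions in 701.3 kb of intron, which is 2.85 per 100 kb. Slit3, a secreted repellent that binds Robo receptors, held 19 at 3.32 per 100 kb, and Nrxn3, a presynaptic neurexin, held 19 at 1.19 per 100 kb. Slit3 thus had nearly 3 times the density of Nrxn3 with the same number of regions. Ptprn2, a phosphatase-like protein of dense-core vesicles, held 18 at 2.29 per 100 kb, and it also held 14 regions open in all 5 libraries, the most of the genes named here apart from Gm20388. Csmd1 and Ptprk, both membrane proteins, held 15 each, at 0.928 and 2.92 per 100 kb, with 1 region open in all 5 libraries each. Grid1, a delta glutamate receptor subunit, held 14 at 1.85 per 100 kb. Itpr1, the inositol trisphosphate receptor that releases calcium from the endoplasmic reticulum, held 14 at 4.30 per 100 kb (95% Poisson interval 2.35 to 7.22). The 14 regions of Itpr1 were spread from intron 2 to intron 55 of 61, and none was in the first intron. For every one of the 10 genes a promoter peak was present in all 5 libraries, so the promoter itself was open in 5-HT cells as well.

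The remaining genes among the 10 with the most regions were Gm20388 and C130026I21Rik, and their counts have plain limits. Gm20388 is annotated over 4434.9 kb of chromosome 8 and spans 72 other protein-coding genes, and its 44 regions gave 1.11 per 100 kb, against 0.836 over all introns. C130026I21Rik, on chromosome 1, held 20 regions at 8.07 per 100 kb. For only 3 of these did the central 32 bases occur once in the genome, so reads there can come from near-identical copies. Over all DA-only intronic regions the central 32 bases occurred once in 98.1%, and 85 regions had 5 or more copies.

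Among genes with at least 5 DA-only intronic regions, 122 reached 3 times the density of all introns. Sp140, a nuclear body protein gene, had the highest value, 17.1 per 100 kb from 6 regions, but only 1 of the 6 was unique in the genome, and together with C130026I21Rik it was the exception in this respect. Every region was unique in the others of the 10 densest genes except for 1 of the 10 regions of Slit1. Cdhr3, a cadherin-related gene, held 6 regions at 10.9 per 100 kb (3.99 to 23.7). Poc1b, which encodes a centriole protein, held 6 at 8.16, and Ccdc33 held 6 at 8.07 per 100 kb. Ccdc33 had no promoter peak in any library, and Cdhr3 had a peak in DA libraries 2 and 3 only. Slit1, a further Slit ligand, held 10 at 7.33 per 100 kb (3.51 to 13.5), and none of the 10 was in the first intron. Ldlrad3, a member of the LDL receptor family, held 14 at 6.33, and 9 of them lay in intron 4. Aven, an inhibitor of apoptosis, held 8 at 5.96, Camk2b, a subunit of calcium/calmodulin-dependent kinase II, held 5 at 5.88, and Bcar3, an adaptor protein, held 6 at 5.66 per 100 kb. In Camk2b, none of the 5 intronic regions open in every DA library had a 5-HT peak. With so few regions a gene the intervals are wide, and the order of these genes is not resolved.

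The share of DA-only regions among the intronic regions of a gene that were open in all 3 DA libraries was taken for the 349 genes with at least 8 such regions. Gfra1, the co-receptor through which GDNF signals in DA neurons, was 1 of 3 genes where this share was 100%, with 8 of 8 regions. The others were Pcdh15, a protocadherin, with 9 of 9, and 1700011I03Rik, with 10 of 10. Adamts12, a secreted metalloproteinase, and Tmtc2 followed, each with 8 of 9. At the other end stood Bcor, a transcriptional corepressor, with 1 of 8, 2810055G20Rik and Apba2 with 2 of 12 each, and Gramd1b with 2 of 10. The rule used the contrast behind these shares, so they describe how the regions are distributed and are not a test.

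Of 31 genes of the DA lineage, 18 held at least 1 DA-only intronic region and 13 held none. Together they held 57 regions in 3578.5 kb of intron, or 1.59 per 100 kb (95% Poisson interval 1.21 to 2.06), against 0.843 over all protein-coding genes, and DA-only regions made up 55.3% (95% Wilson interval 45.7 to 64.6%) of their intronic regions open in all 3 DA libraries, against 49.7%, which this interval includes. Of the 57, 17.5% lay in the first intron, against 28.4% over all protein-coding genes. Low shares were also found for hindbrain and glial transcription factors (16.7%) and for synaptic adhesion and organisation genes (20.7%), and the difference was not tested. The median gene of the DA lineage list had 0.653 DA-only regions per 100 kb, and the median over all protein-coding genes was 0. This list, too, was chosen with earlier results of these data known.

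Gfra1 (chr19:58310094-58530399, mm9) held the most, with 8 regions at 3.73 per 100 kb in introns 4, 5 and 9 of 10. Its strongest region, chr19:58442789-58443388 in intron 5, had scores of 9.09, 12.7 and 12.4 in the 3 DA libraries. Ret, the receptor tyrosine kinase that Gfra1 engages, held 2 regions in its first intron, the stronger at chr6:118145247-118145422 with scores of 7.44, 8.41 and 7.60. Both partners of the GDNF receptor thus carried DA-only sites. Lmx1a held 7 regions at 4.49 per 100 kb, all centred in intron 3 of 8, which is 99.2 kb long. The strongest of them, chr1:169718740-169720226, scored 7.08, 9.97 and 7.79, and the other 6 had a lowest score between 3.29 and 4.96. Lmx1b, its paralogue, which acts in both lineages, held 1 such region and 4 with a peak in 1 5-HT library.

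Th held 3 DA-only regions, at 8.78 per 100 kb of intron. All 3 lay in the 33.5 kb first intron of the longest annotated transcript, and they were upstream of the start of a shorter Th transcript, at 1.88, 3.14 and 8.12 kb from the nearest Th TSS. The outermost, chr7:150093664-150094407, scored 9.05, 8.74 and 8.79, and the innermost, chr7:150087224-150088380, scored 8.94, 8.61 and 7.85. These 2 are high for the set, since 90% of the DA-only intronic regions had a lowest score of at most 6.21. The middle one, chr7:150088926-150089186, scored 7.95, 7.90 and 3.43, and its lowest score was among the low ones of the set. Only the DA group carries the transgene with the rat Th promoter. Whether reads from it add to the peaks in these regions or at the Th promoter was not tested. Ddc, the decarboxylase that DA and 5-HT neurons share, held 2 DA-only regions, 3 with a peak in 1 5-HT library and 4 open in all 5 libraries. Slc18a2, the vesicular monoamine transporter also used by both cell types, held 1 intronic region open in all 3 DA libraries, at chr19:59341593-59342560 in intron 3, and it was DA-only, with scores of 4.78, 7.06 and 6.77. Drd2, the dopamine autoreceptor, held 1 DA-only region in its first intron, with scores of 4.53, 5.80 and 4.70.

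Kcnj6, the GIRK2 potassium channel of nigral DA neurons, held 4 DA-only regions, and the strongest, chr16:95009896-95010241 in intron 3, had a lowest DA score of 6.93. Among transcription factors of DA neurons or their neighbours, Ebf1 held 6, Bnc2 5, Sox6 and Tcf7l2 4 each, Satb1 3, Ebf3 2 and Pbx3 1. All 4 intronic regions of Tcf7l2, an effector of Wnt signalling, that were open in the 3 DA libraries lacked a 5-HT peak. The serine protease Corin, a floor plate marker, held 1. Genes without a DA-only intronic region included Nr4a2, Pitx3, Foxa1, Foxa2, En1, En2, Otx2, Msx1, Slc6a3, Aldh1a1, Gch1 and Calb1. Most of these are short genes with little intron sequence: Foxa2 had 0.450 kb and En1 2.95 kb. Slc6a3, with 38.5 kb, and Aldh1a1, with 39.4 kb, had no intronic region open in all 3 DA libraries.

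Of 17 genes of the 5-HT lineage with intron sequence, 4 held a DA-only intronic region, 7 in all, or 1.17 per 100 kb (0.469 to 2.41). Esrrb, an orphan nuclear receptor, held 3 in its first intron, Tph2 held 2, and the organic cation transporter Slc22a3 and the hindbrain factor Egr2 held 1 each. The strongest of the 2 regions in Tph2, chr10:114617863-114618887 in intron 2, had a lowest DA score of 5.47. The interval of this list includes the density of all protein-coding genes. The DA-only share was 58.3% (7 of 12), no lower than in the DA lineage list.

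The other lists were described by their counts. Voltage-gated channel genes held 107 DA-only intronic regions at 1.01 per 100 kb, and 59.1% of their intronic regions open in all 3 DA libraries were DA-only (95% Wilson interval 51.8 to 66.0%). Synaptic adhesion and organisation genes held 295 at 0.665 per 100 kb, with a share of 61.0% (56.5 to 65.2%), and their regions open in all 5 libraries numbered 0.176 per 100 kb, against 0.417 over all protein-coding genes. The median span of these genes was 759.1 kb. Host genes with a span of 500 kb to 1 Mb were close to them. There the share was 59.2%, with 0.754 DA-only regions and 0.199 regions open in all 5 libraries per 100 kb. Axon guidance genes held 149 at 1.07 per 100 kb, with a share of 54.4%, and receptors for glutamate and GABA held 58 at 0.613, with a share of 52.7%. Hindbrain and glial transcription factors held 24 at 1.56 per 100 kb (95% Poisson interval 1.00 to 2.33), with a share of 44.4%, whose 95% Wilson interval includes the 49.7% of all protein-coding genes. Glial, vascular and microglial markers held 18 at 1.53 per 100 kb (0.907 to 2.42), with a share of 48.6%. The density of these 2 lists thus lay above that of all protein-coding genes as that of the DA lineage list did, and a high density was not particular to DA genes. Genes of muscle, liver and skin held 13 at 0.364 per 100 kb, with a share of 68.4% (46.0 to 84.6%) from 19 regions. Dmd, the dystrophin gene, which is also expressed in neurons, held 2217.6 kb of the 3575.3 kb of intron of this list and 3 of the 13 regions.

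Since peak number differed between the groups, the intronic peaks of each list were also counted with 22879 peaks in every library. The introns of the DA lineage list held 38, 35 and 35 peaks in the DA libraries and 29 and 24 in the 5-HT libraries. The 5-HT lineage list held 4, 2 and 5 against 8 and 9. Each lineage list thus had more peaks in its own cell type in every library. All protein-coding genes also held slightly more in the DA libraries (6311, 6204 and 6258 against 6029 and 6142), and the DA lineage list made up 0.574, 0.536 and 0.533% of all intronic peaks there against 0.459 and 0.373%. Voltage-gated channel genes held 72, 67 and 79 peaks in the DA libraries and 54 and 57 in the 5-HT libraries. Hindbrain and glial transcription factors went the other way, with 18, 9 and 11 against 23 and 33, and so did glial, vascular and microglial markers, with 11, 12 and 11 against 15 and 22. The counts of axon guidance genes (94, 83 and 93 against 88 and 112) and of synaptic adhesion genes (156, 139 and 171 against 149 and 167) overlapped between the groups. So did those of receptors for glutamate and GABA (37, 37 and 37 against 35 and 43). Genes of muscle, liver and skin held 7, 9 and 10 against 6 and 4, so a surplus in the DA libraries was also seen outside the lists of neuronal genes. These counts come from the libraries that chose the regions and were not tested. The lists were chosen with earlier results of these data known.

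The score of a DA-only intronic region was low to middling within its library. The median was 4.54, 4.97 and 4.62 in the 3 DA libraries, which is the 38.2, 58.7 and 61.2 percentile of the peaks of each library. Intronic regions open in all 5 libraries had medians of 6.75, 7.96 and 7.17, at the 71.3, 82.7 and 83.6 percentile. The files do not name the scale of this score, and the lowest score over libraries assumes a common one. When the 15889 intronic regions open in all 3 DA libraries were ranked by their lowest DA score and divided into 10 classes, 77.5% were DA-only in the lowest class, 52.3% in the sixth and 10.8% in the highest. Weak DA peaks thus made up much of the set. Of the 7887 regions, 919 (11.7%) were among the 22879 highest-scoring peaks in each of the 3 DA libraries, against 55.9% of the intronic regions open in all 5. When presence itself was taken at this number of peaks, 1193 intronic regions were DA-only, and with 10000 peaks per library 283 were. The 1193 made up 27.9% of the intronic regions with a peak in all 3 DA libraries at the equal number, against 49.6% with all peaks. Of the 1193, 919 (77.0%) had a score of 0 in both 5-HT libraries.

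The score was related to few other properties of the DA-only intronic regions. In the tenth with the highest lowest score, the median width was 448 bp and 24.5% lay in the first intron, against 507 bp and 31.7% in the tenth with the lowest. The median GC content was 47.8% and 48.6%. Over intron ranks the median of the lowest score moved only from 4.01 in first introns to 4.27 in introns 11 to 20. Between pairs of DA libraries, Spearman correlations of the score across intronic regions open in all 5 libraries were 0.873 to 0.885. Across the 7887 DA-only regions they were lower, 0.685 to 0.719. These regions are not independent replicates, and the same libraries chose them.

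The 10 regions with the highest lowest DA score lay in genes of varied function. The highest was chr14:14029990-14030310 in intron 2 of Gm5087, with scores of 13.9, 18.4 and 13.6. It was followed by chr4:76279811-76280427 in intron 9 of Ptprd, a receptor phosphatase that organises synapses, with scores of 13.0, 14.9 and 14.0. Next came chr15:43338807-43339506, centred in intron 5 of Ttc35, with 12.7, 14.7 and 15.1. The region in intron 38 of Itpr1, chr6:108367461-108367856, had 12.4, 11.9 and 11.8. All 3 libraries thus gave each of these sites a score more than 2 times the median. Mcoln3, a lysosomal cation channel, and Rspo2, a secreted enhancer of Wnt signalling, each held a region within about 3 kb of the TSS, with lowest scores of 11.6 and 11.5. The others lay in Ndst4, a heparan sulfate sulfotransferase (11.4), in Grik1, a kainate receptor subunit (11.4), in Pam, an enzyme of peptide amidation (11.2), and in 4933407K13Rik on the X chromosome (11.7), where the central 32 bases occurred 3 times in the genome. The distance to the host TSS ranged from 1.92 kb in Mcoln3 to 1577.7 kb in Ptprd.

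The values on both sides of the threshold are given once. Many regions shared the lowest DA score of the set, among them those in Dst, Spats2l and Casq1, at 3.03, the smallest value of any peak in DA library 3. Just outside were intronic regions that missed the rule by 1 library. Of these, 6694 lacked a peak in DA library 1 only, 542 in DA library 2 only and 1044 in DA library 3 only, and 3565 had a peak in 5-HT library 1 and 543 in 5-HT library 2 beside the 3 DA libraries. DA library 1, with the fewest DA peaks, therefore set the size of the set more than the others, and without it the rule gave 14581 regions. The strongest region just outside lay in the intron of Kcnj10, with DA scores of 15.1, 16.1 and 15.5 and a score of 3.66 in 5-HT library 1.

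To see how far the choice carries to a library that did not take part in it, intronic regions were chosen on 2 DA libraries with a peak and 1 5-HT library without, and looked up in the DA and the 5-HT library left out. With DA library 2 and 5-HT library 1 left out, 12042 regions were chosen, of which 95.1% had a peak in the DA library left out and 30.0% in the 5-HT library left out. Over the 6 combinations the DA share ran from 55.0 to 95.1% and the 5-HT share from 4.89 to 30.0%. When the DA library left out was reduced to as many peaks as the 5-HT library left out, its share fell to between 14.9 and 53.9%, still 10.0 to 24.5 percentage points above the 5-HT share in each combination. At these peak numbers both libraries had a peak in nearly the same share of all intronic regions, for example 25.2 and 24.7% in the combination above. Regions chosen in this way were thus found more often in a further DA library than in a further 5-HT library, also at an equal number of peaks, while much of the gap seen with all peaks went with peak number.

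At an equal number of peaks, introns held 28.9, 28.5 and 28.7% of the peaks in the DA libraries and 27.6 and 28.1% in the 5-HT libraries. The means were 28.7% ± 0.206 (SD, n = 3) and 27.9% ± 0.346 (SD, n = 2). The difference of 0.852 percentage points gave p = 0.1 in a two-sided exact permutation test, the smallest p that 3 against 2 libraries allow, and 0.1 after Benjamini-Hochberg adjustment over 2 tests. All 3 DA values lay above both 5-HT values, but a test of this size cannot pass 0.05. The difference was 6.99 percentage points with all peaks and 1.48 with a wider promoter, and the groups overlapped with 10000 peaks per library. The authors describe the sorts of each group as independent, and p measures only the spread between these samples.

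The promoters of the host genes were not used in choosing the regions. The hosts were still chosen through the same libraries, so the comparison of their promoters is not independent of that choice. Of the 3531 protein-coding hosts, 84.0, 87.8 and 86.3% had a promoter peak in the DA libraries and 81.5 and 68.8% in the 5-HT libraries, with means of 86.0% ± 1.93 (SD, n = 3) and 75.2% ± 8.95 (SD, n = 2). Over all 19270 protein-coding genes, 66.2, 70.4 and 68.5% had a promoter peak in the DA libraries and 64.4 and 54.9% in the 5-HT libraries. The direction was thus the same for genes in general. The difference for the hosts, 10.9 percentage points, had the smallest possible p, 0.1, in the two-sided exact permutation test (adjusted p = 0.1). It was 17.2 without 5-HT library 1, 4.54 without 5-HT library 2 and 6.00 for hosts of at least 5 regions, and it turned around at an equal number of peaks, where the hosts had 60.2, 59.2 and 58.5% in the DA libraries against 68.3 and 68.8% in the 5-HT libraries, a difference of -9.27 percentage points. Over all 19270 protein-coding genes the shares at an equal number were 50.7, 51.0 and 48.7% against 54.8 and 54.9%, so the same direction was seen for genes in general. No direction can therefore be given for host promoters. Of the 3531 hosts, 67.7% had a promoter peak in all 5 libraries, 12.2% in the 3 DA libraries and 1 5-HT library, 10.8% in none and 3.12% (110 genes) in the 3 DA libraries only. Most host genes thus had a promoter that was open in both cell types. The same classes were not counted over all protein-coding genes, so these shares describe the hosts only. The 110 genes with a DA-only promoter as well included Th, Lmx1a and Sox6 of the DA lineage list.

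The central 200 bp of each region were searched on both strands for 17 short words bound by families of transcription factors, with each word read backwards (not complemented) as a control of the same base composition. Reading backwards creates a CpG in some controls, among them those of CAGCTG and AGGGGGC. The CpG ratio was lower in DA-only than in shared regions, so these controls are of limited use. The word of the NR4A family, AAAGGTCA, the site of the DA factor Nurr1 (Nr4a2) among others, stood out. It was found in 301 DA-only intronic regions, which is 3.82% (95% Wilson interval 3.42 to 4.26%), in 3.55% of DA-only intergenic regions, in 1.10% of intronic regions with a peak in 1 5-HT library, in 0.642% of those open in all 5 libraries and in 1.88% of all 131942 regions. The backwards word ACTGGAAA was found in 1.42, 1.43, 1.19, 1.23 and 1.35% of the same groups. The NR4A word was thus 5.94 times as frequent in DA-only intronic regions as in shared ones, and its control only 1.15 times. Its share was 3.79% in first introns and 3.83% in later ones, and at least 5 kb from any TSS it was 3.77% against 0.651% in regions open in all 5 libraries.

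The same word was counted in the intronic peaks of each library at an equal number of peaks, a set that does not depend on the rule but comes from the same libraries. It was present in 1.87, 1.39 and 1.54% in the DA libraries and in 0.728 and 0.560% in the 5-HT libraries, and its backwards control in 1.25, 1.41 and 1.43% against 1.11 and 1.31%. The groups did not overlap for the word, and the difference was not tested.

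The OTX and PITX homeodomain word TAATCC was found in 10.4% of DA-only intronic regions, 4.31% of those open in all 5 libraries and 7.11% of all regions, and its control in 7.57, 4.55 and 6.31%. In the equal-number intronic peaks it was present in 6.74, 6.13 and 6.63% in the DA libraries and in 5.05 and 4.73% in the 5-HT libraries. The forkhead word TGTTTAC was found in 5.46% of DA-only intronic regions, 2.67% of shared ones and 3.82% of all, and its control in 4.25, 2.80 and 4.17%. For the LMX1 and engrailed homeodomain word TAATTA the shares were 8.34, 4.21 and 6.38%, but its control moved as much (7.02, 3.11 and 5.36%), so the difference was not particular to this word. In the equal-number intronic peaks TAATTA was present in 4.91, 4.48 and 5.12% in the DA libraries and in 5.67 and 4.37% in the 5-HT libraries. The E-box words CAGATG (22.9, 14.9 and 19.5%) and CAGCTG (24.6, 17.5 and 18.9%) were also more frequent than in shared regions, with controls at 4.69, 3.85 and 4.55% and at 0.368, 0.668 and 0.464%. At an equal number of peaks CAGATG was present in 18.3, 17.9 and 18.2% in the DA libraries against at most 16.5% in the 5-HT libraries, while the groups overlapped for CAGCTG (19.7, 18.6 and 18.0% against 16.1 and 18.4%). The SOX word ACAAAG was found in 17.1% of DA-only intronic regions and 17.4% of shared ones. In the equal-number intronic peaks it was less frequent in the DA libraries (16.8, 16.2 and 16.5%) than in the 5-HT libraries (20.1 and 19.8%). The CTCF core word AGGGGGC was found in 4.69% of DA-only intronic regions and 7.73% of shared ones, but in 8.75% of the tenth of the DA-only intronic regions with the highest score. Its control, which holds a CpG that the word lacks, was found in 3.67% of shared regions and 1.15% of DA-only ones, and nothing is read from it. In the equal-number intronic peaks the word was more frequent in the DA libraries (8.20, 9.27 and 8.47%) than in the 5-HT libraries (7.41 and 7.17%). At least 5 kb from any TSS the differences between DA-only and shared intronic regions were smaller for TGTTTAC (5.70 against 4.12%), for TAATTA (8.82 against 6.40%), for TAATCC (10.9 against 5.42%) and for both E-box words (24.8 against 21.6% for CAGCTG), and ACAAAG was less frequent in DA-only regions (17.5 against 22.3%). The GATA word AGATAA, of the family of the serotonergic markers Gata2 and Gata3, was found in 10.8% of DA-only intronic regions, 6.11% of shared ones and 9.21% of all. Its control was found in 9.57, 5.98 and 8.58%. In the equal-number intronic peaks AGATAA was also more frequent in the DA libraries (8.32, 7.71 and 8.39%) than in the 5-HT libraries (7.44 and 7.03%). Not all of the 17 words are described here. The words TAATTA and TGATTNAT can overlap, as can other pairs of these short words, and a match shows letters and not a bound factor.

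At least 1 of the 4 words of factor families used in DA neurons (AAAGGTCA and TAATTA and TAATCC and TGTTTAC) was found in 24.9% of the DA-only intronic regions, 26.6% of the DA-only intergenic ones, 11.2% of the intronic regions open in all 5 libraries and 17.5% of all regions, and no reversed control was counted for the 4 together. The sequences below show the central 200 bases of the strongest DA-only region in some lineage genes where a word was found, and of some regions among the 10 with the highest score where a word was found, because these carry the words counted above. They are from mm9 (NCBIM37), plus strand, and capitals mark these 4 words on either strand. The Th window is chr7:150093936-150094135 in the first intron of the longest transcript, with 1 TAATCC. The Drd2 window is chr9:49174015-49174214 in the first intron, with 1 AAAGGTCA. The Satb1 window is chr17:51946906-51947105 in intron 2, with 1 match of the forkhead word on the minus strand.
Th: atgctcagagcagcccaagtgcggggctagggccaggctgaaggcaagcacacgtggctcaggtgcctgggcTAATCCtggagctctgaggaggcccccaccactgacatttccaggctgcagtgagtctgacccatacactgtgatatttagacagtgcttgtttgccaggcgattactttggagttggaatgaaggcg
Drd2: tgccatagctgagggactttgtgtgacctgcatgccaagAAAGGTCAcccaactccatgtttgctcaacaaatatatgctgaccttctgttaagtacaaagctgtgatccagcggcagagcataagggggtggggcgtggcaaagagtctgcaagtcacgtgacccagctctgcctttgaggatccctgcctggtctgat
Satb1: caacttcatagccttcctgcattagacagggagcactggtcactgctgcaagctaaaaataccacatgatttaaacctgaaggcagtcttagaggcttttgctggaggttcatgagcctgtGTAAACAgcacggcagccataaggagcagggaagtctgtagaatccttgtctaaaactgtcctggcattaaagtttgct

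Of the 10 regions with the highest score, Grik1 held the NR4A word at chr16:88181962-88182161 in its first intron. Ptprd held TAATCC at chr4:76280019-76280218 in intron 9. Ttc35 held TAATCC at chr15:43339057-43339256, a window centred in intron 5. Only the centre had to lie in the intron, and a window can reach into an exon. The regions named here are not all of the 10 that held a word. The central windows of the strongest regions of Gfra1, Ret, Lmx1a and Kcnj6 held none of the 4 words. Of the 18 lineage windows, 4 held at least 1 of the words, near the share among all DA-only intronic regions.
Grik1: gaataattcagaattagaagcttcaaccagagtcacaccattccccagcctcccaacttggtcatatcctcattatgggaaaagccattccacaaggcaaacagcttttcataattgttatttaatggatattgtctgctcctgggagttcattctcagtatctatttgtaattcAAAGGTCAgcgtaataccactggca
Ptprd: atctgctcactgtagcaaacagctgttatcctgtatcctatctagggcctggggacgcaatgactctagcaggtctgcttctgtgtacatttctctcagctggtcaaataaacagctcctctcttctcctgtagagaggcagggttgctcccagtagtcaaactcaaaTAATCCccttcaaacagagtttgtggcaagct
Ttc35: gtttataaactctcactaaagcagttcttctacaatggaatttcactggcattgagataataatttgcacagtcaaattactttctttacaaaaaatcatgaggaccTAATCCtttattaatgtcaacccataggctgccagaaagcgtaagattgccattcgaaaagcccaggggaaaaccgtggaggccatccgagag

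DA-only intronic regions were mostly single sites. The median distance to the nearest other DA-only intronic region was 35.6 kb, 22.9% had another within 10 kb and 3.09% within 1 kb. The 7887 regions were in 5986 introns, of which 81 held at least 5. The highest counts were 42 in the first intron of Gm20388, 12 in that of C130026I21Rik and 11 in intron 2 of Fgfr2, annotated over 2957 kb. The limits of the first 2 genes are given above. The Fgfr2 intron belongs to a very long transcript model, and its regions can lie in or near other genes. The first intron of Gm15710 held 10. Others among the fullest were intron 3 of Pde4d, a cAMP phosphodiesterase, with 10, the first intron of Accn1, a proton-gated channel, with 10, intron 4 of Ldlrad3, intron 2 of Celf4, an RNA-binding protein, and the first intron of Ntm, a cell adhesion protein, with 9 each. These introns were named after their values were seen. A region with a peak in a 5-HT library lay within 1 kb of 6.30% of the DA-only intronic regions and within 10 kb of 41.3%, at a median of 13.7 kb. These neighbours were not required to lie in the same gene, and no other set was compared.

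Over the autosomes the density ran from 0.724 per 100 kb of intron on chromosome 11 to 1.05 on chromosome 10. The X chromosome held 119 regions at 0.259 per 100 kb. The share of DA-only regions among intronic regions open in all 3 DA libraries was 41.9% on the X and 44.1 to 52.8% on the autosomes.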

How the data were processed

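ATAC-seq peaks of 3 DA and 2 5-HT libraries were analysed. Per the submitters' processing notes, reads were handled with Trimmomatic, FastQC, Bowtie2, Picard, MACS2 and HOMER on mm9, with no versions given. The deposited score covers 131942 regions per library, its scale is not stated, and 0 stands for no peak. The chromosome of 1 region was misspelled and was read as the one it stands for. Read depth is not in the files, so precision is given by peak number and by intervals that cover counting error only. The members and lists were chosen with earlier results of these data known.

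With GENCODE models on mm9, a region centre was assigned first to promoters, then exons, then introns, and otherwise called intergenic. Intron rank was taken in the longest-spanning transcript around the centre, a protein-coding one where there was any. Density was counted per 100 kb of a gene's intron sequence outside promoters and exons. Shares carry 95% Wilson intervals and densities exact 95% Poisson intervals. For comparisons at an equal number, every library was reduced to its top 22879 peaks by score. Libraries were compared by two-sided exact permutation tests with Benjamini-Hochberg adjustment over 2 tests.

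The named genes were the 10 protein-coding genes with the most regions, the 10 with the highest density among those with at least 5, the 5 with the highest and the 5 with the lowest DA-only share among those with at least 8 intronic regions open in all 3 DA libraries, the hosts of the 10 regions with the highest and the 3 with the lowest score in their lowest DA library, and the genes of the DA and 5-HT lineages. The 9 gene lists and 17 words were compiled from general knowledge, and the lists were chosen with earlier results of these data known. Words were counted in the central 200 bp on both strands. Alternatives changed the promoter, the transcripts, the number of peaks, the libraries and the window. Python 3.11.15, NumPy 2.4.6, SciPy 1.17.1 and pandas 2.3.3 were used, and the functions were tested on simulated data. RNA-seq was not analysed, because no files of these samples were at hand. Some genes and sequences that this rule names are not reported.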

Additional observations from a re-analysis of the deposited data

How the results depend on the processing

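The number of DA-only intronic regions, 7887, was kept within 1.5 times by merging peaks less than 100 bp apart, by a wider promoter (2 kb before to 500 bp after the TSS), by transcripts of protein-coding genes only, by requiring the whole region in introns and by keeping regions with a unique central 32-mer. It fell to 1193 with an equal number of peaks and to 283 with 10000 peaks per library, where fewer peaks are counted by construction. Leaving out each library in turn gave 8429 to 14581, the highest without DA replicate 1. The first-intron share of 29.4% was 28.4% with protein-coding transcripts only, 25.6% with an equal number of peaks, 41.9% when the first intron of any transcript counted and 26.4% at least 5 kb from any TSS, and 29.4 to 31.0% when each library was left out. It stayed below that of regions open in all 5 libraries in each of these settings, where the difference was smallest at least 5 kb from a TSS (27.2%). The cause was not tested. The settings with a unique 32-mer and with a distance from TSSs were added after seeing the data.

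The difference in the intronic share of peaks kept its direction in every setting and was 0.608 to 1.10 percentage points when each library was left out. It was 6.99 with all peaks, 1.48 with the wider promoter and 0.890 with 10000 peaks per library, where the groups overlapped (exact permutation p = 0.3). The difference in host promoters was 4.54 to 17.2 percentage points when each library was left out and -9.27 at an equal number of peaks, and the cause was not tested. A replicate block that paired replicates 1 and 2 gave 0.861 for the intronic share and 10.7 for host promoters, but the numbers pair no samples, since the groups come from different mouse lines. The densities of 19 of 19 named genes stayed within their intervals per 100 kb of gene span, and all 17 word shares rose in a window of 500 bp, which holds more bases. Peak number and unknown read depth limit all counts of absent peaks.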
